A study of Drosophila melanogaster with 12 samples.

Results

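The ovaries of the wild-type strains BL15598 and Canton S of Drosophila melanogaster were compared with each other. The arrays were chosen by label, as all 6 arrays, 3 per strain, that carry no su(Hw) mutation, of 12 arrays in the study. Canton S is a long-kept laboratory wild type. BL15598 carried the eye and body colour alleles y[1] and w[67c23] and a P element, EPgy2 with the insertion name EY02782, in CG6499, the gene today called Amt. The element itself bears w[+mC] and y[+mDint2], so this strain is wild type only with respect to su(Hw). The other 6 arrays came from 2 sterile su(Hw) mutants, 3 arrays each. Both mutants had an X chromosome with y[2], w[67c23], ct[6] and f[1]. Pb/2 had the su(Hw) alleles e04061 and 2, and A2663/v had A2663 over 2 in its genotype label, v in its source label, together with the same P element as BL15598. The mutants entered the fit to estimate the spread and were set beside the wild types as a reference. All ovaries were from virgin females 4 to 6 h after eclosion raised at 25 °C, about 100 pairs per biological replicate, and by the study's description held egg chambers of stages 1 to 8. Each strain is a single stock, so the marker alleles, the P element and all other differences in genetic background cannot be told apart.

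An ovary is made of strings of egg chambers, each a cyst of germline cells, 1 of which becomes the oocyte, within a layer of somatic follicle cells. Germline stem cells and cyst formation lie in the germarium at the tip. As chambers mature the follicle cells make yolk proteins, then the vitelline membrane, the inner layer of the eggshell, and last the chorion, while the oocyte takes up yolk through a receptor. Muscle sheaths, tracheae and haemocytes accompany the dissected organ, so a change in whole ovaries can reflect fewer cells of a type, fewer chambers of a stage or less RNA per cell, and these cannot be told apart.

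The deposited log2 signals came from background-corrected and normalised arrays. A log2 signal of 5 was taken as the floor of measurement, and 5952 of 11982 genes lay over it on at least 3 of the 6 wild-type arrays and were tested. Across tested genes, arrays of Canton S correlated at 0.978 to 0.992, arrays of BL15598 at 0.991 to 0.994, and arrays of different strains at 0.934 to 0.957. Canton S replicate 3 stood farthest from its group. The spermathecal protease gene Send1 lay at 8.28 on that array against 2.46 to 2.50 on the other 5, and the chorion gene Cp15 at 6.52 on Canton S replicate 1 against 1.85 to 2.37 on the others. Of 24 gut genes on the array, alphaTry and Mal-A1 lay highest in BL15598 replicate 2, at 7.34 and 7.14. Of 5 array-wide measures compared by an exact two-sided permutation test of 3 arrays against 3, whose smallest p is 0.1, GAPDH control probe sets at the transcript's 3′ end exceeded those at its 5′ end by 2.16 ± 0.23 log2 units in Canton S and by 1.86 ± 0.17 in BL15598 (SD, n = 3; exact p = 0.1, adjusted p = 0.25), and the percent of probe sets over the floor was 38.2 ± 0.03 and 37.8 ± 0.23 (same p-values). The same end difference for the eIF-4a and actin controls changed by -0.26 and 0.08, BL15598 minus Canton S (exact p = 0.7 each). The mean signal of gut markers changed by 0.18 (exact p = 0.5). Canton S replicate 3 was the highest array for all 3 controls, at 2.43 for GAPDH, 3.05 for eIF-4a and 1.35 for actin. The part of these differences in the results below was not tested.

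Between the strains 296 of 5952 genes were called, at a limma adjusted p under 0.05 and at least a 2-fold change, which is 4.97% of those tested. Of these, 121 were higher in BL15598 (2.03%) and 175 lower (2.94%). Most of the ovary's transcripts lay close together: 94.8% of tested genes differed by less than 2-fold, and the median log2 change, BL15598 minus Canton S throughout, was -0.01. With no minimum fold, 1572 genes (26.4%) passed, 700 higher and 872 lower. The arrays of the strains did not overlap for 2483 genes (41.7%), 1162 with all BL15598 arrays above (19.5%) and 1321 with all below (22.2%). Among the 296 called genes they did not overlap for 291, but these genes were chosen by the difference between the same arrays, so this adds no support. The median fold was 3.11 among called genes higher in BL15598 and 2.58 among those lower. At least a 4-fold change was seen in 74 genes, 40 higher and 34 lower, and at least a 16-fold change in 12. Both strain means lay over the floor for 215 of the called genes. For 24 of the higher genes all 3 Canton S arrays lay under the floor, and for 41 of the lower genes all 3 BL15598 arrays did. These genes passed the filter through the arrays of the brighter strain alone, which also fixed that their arrays did not overlap. The remaining 16 had the mean of 1 strain, though not all of its arrays, under the floor.

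**Figure D1:**
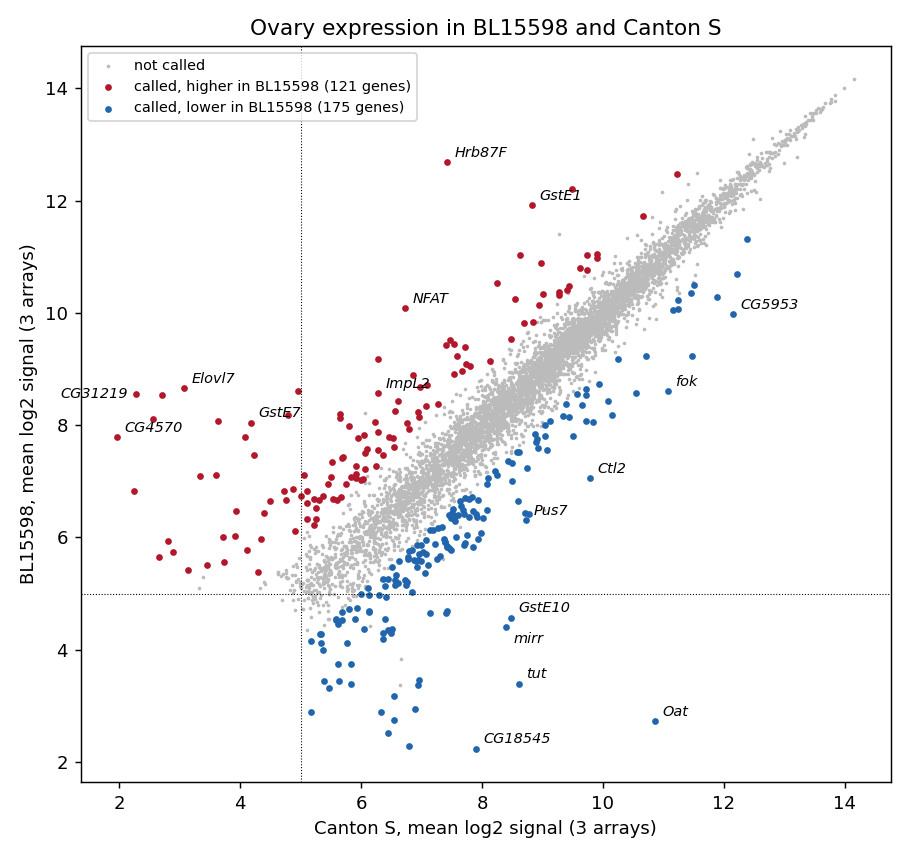
Mean log2 signal of each of 5952 tested genes in BL15598 (vertical axis) against Canton S (horizontal axis), 3 arrays each. Red points are the 121 genes called higher and blue points the 175 called lower in BL15598, grey points were not called, and dotted lines mark the floor of log2 5. Most genes follow the diagonal, Hrb87F lies far above it, and Oat lies at 10.86 in Canton S and 2.72 in BL15598.

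The largest bound on a strain difference among the called genes was that of Oat, which encodes the mitochondrial enzyme ornithine aminotransferase. Its log2 signal was 10.86, 11.04 and 10.70 in Canton S and 3.08, 2.37 and 2.72 in BL15598. It was over the floor on every Canton S array and under it on every BL15598 array, at least 58.3-fold lower in BL15598 (limma adjusted p = 3.50e-14). Here and below, "at least" marks a gene with all 3 arrays of the dimmer strain under the floor, with values under the floor raised to it before the fold was taken. Both mutants lay between the strains, A2663/v at 7.30 ± 0.10 and Pb/2 at 9.59 ± 0.17 (SD, n = 3).

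Other genes measured in Canton S and under the floor in BL15598 included developmental regulators. The gene mirr, an Iroquois-family homeodomain factor that patterns the dorsal anterior follicle cells, lay at 8.46, 8.40 and 8.35 in Canton S and 4.32, 4.53 and 4.38 in BL15598. That is at least 10.6-fold lower in BL15598 (adjusted p = 9.09e-11), with Pb/2 near Canton S at 8.11 and A2663/v between the strains at 7.13. A second mirr probe set lay under the floor in both strains and so gives no comparison. The gene tut, known in the male germline as a partner of the differentiation factor Bam, lay at 8.91, 8.91 and 8.02 in Canton S and 3.35, 3.47 and 3.36 in BL15598. It was at least 12.2-fold lower (adjusted p = 3.23e-11), and Canton S replicate 3 was lower than the other 2 Canton S arrays. The glutathione transferase gene GstE10 was at least 11.2-fold lower, CG18545 at least 7.50-fold, the noncoding RNA gene CR43790 at least 5.31-fold, scaf, which encodes a serine protease homologue, at least 4.41-fold, and CG7059 at least 3.89-fold (limma adjusted p from 3.23e-11 for tut to 4.59e-05 for scaf over the 7 genes after Oat). CG18545 lay at 7.91 in Canton S, 2.24 in BL15598, 2.64 in A2663/v and 6.65 in Pb/2, so A2663/v was under the floor as well.

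In the opposite direction, Elovl7, named as a fatty acid elongase, lay at 3.04, 3.02 and 3.15 in Canton S and 8.69, 8.55 and 8.72 in BL15598. It was under the floor on every Canton S array and at least 12.6-fold higher in BL15598 (limma adjusted p = 3.41e-14). Arpc1, a subunit of the Arp2/3 complex that nucleates branched actin, lay at 3.04, 2.61 and 2.45 in Canton S and 8.43, 8.54 and 8.62 in BL15598. It was at least 11.6-fold higher in BL15598 (adjusted p = 1.31e-11), and the mutants lay between the strains at 6.39 and 6.04 in A2663/v and Pb/2. CG31219 was at least 11.7-fold higher, CG8539 at least 8.59-fold, the glutathione transferase gene GstE7 at least 8.23-fold, CG8768 at least 6.94-fold and CG4570 at least 6.89-fold (adjusted p from 3.47e-13 for CG31219 to 2.49e-08 for GstE7 among these 5). The hairpin RNA locus hpRNA:CR32207, a kind of transcript known as a source of endogenous small interfering RNAs, was at least 8.41-fold higher, at 3.37, 3.93 and 3.58 in Canton S and 7.77, 8.41 and 8.04 in BL15598 (adjusted p = 7.00e-10). For CG4570 and Elovl7 both mutants lay near BL15598, at 7.88 and 7.24 for CG4570 and 8.56 and 8.98 for Elovl7 in A2663/v and Pb/2.

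Among genes measured over the floor in both strains, Hrb87F differed most. It encodes an hnRNP, a protein that coats nascent transcripts and takes part in splicing, and its log2 signal was 8.04, 7.11 and 7.12 in Canton S and 12.74, 12.57 and 12.75 in BL15598. The change was 5.26 ± 0.17 (SE), 38.4-fold, with limma adjusted p = 1.09e-11. Canton S stood alone for this gene, since A2663/v lay at 12.73 ± 0.03 and Pb/2 at 12.69 ± 0.04 (SD, n = 3). The gene NFAT, the fly member of the calcium-responsive NFAT transcription factors, lay at 6.59, 6.59 and 7.01 in Canton S and 10.13, 10.05 and 10.07 in BL15598, a change of 3.35 ± 0.12 (adjusted p = 3.07e-11). Its mutant means, 10.03 in A2663/v and 9.99 in Pb/2, were also near BL15598.

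The other 10 of the 12 largest rises had log2 changes of 2.05 to 3.09. They included GstE1 at 3.09 ± 0.13, the odorant-binding protein gene Obp44a at 2.54 ± 0.27, ImpL2, a secreted antagonist of insulin-like peptides, at 2.29 ± 0.26, and Acat1, named as an acetyl-CoA acetyltransferase, at 2.28 ± 0.10 (SE; limma adjusted p = 1.64e-10, 7.80e-06, 1.08e-05 and 1.78e-10). ImpL2 was highest in BL15598, at 8.32, 8.63 and 8.76, against 6.46, 6.23 and 6.15 in Canton S. Both mutants lay under the Canton S mean for it, at 5.15 in A2663/v and 6.08 in Pb/2. The rest were CG2767, CG14715, the noncoding RNA gene CR44101, CG31517, CG13227 and CG6574, at 2.90, 2.72, 2.47, 2.41, 2.18 and 2.05. For CR44101, Pb/2 lay at 2.96, under the floor, while A2663/v was at 5.94, near the Canton S mean of 5.66.

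The 12 largest falls between measured levels were smaller, from -1.94 to -2.73 on the log2 scale. Ctl2, a choline transporter-like gene, lay at 9.80, 9.93 and 9.64 in Canton S and 6.78, 6.90 and 7.48 in BL15598 and changed by -2.73 ± 0.20 (limma adjusted p = 9.87e-08). The pseudouridine synthase gene Pus7 changed by -2.42 ± 0.13, the phospholipase D gene Pld by -2.28 ± 0.13, and Arc1, a retrotransposon-derived gene whose protein forms capsids, by -2.25 ± 0.10 (adjusted p = 3.82e-09, 9.48e-09 and 5.49e-10). The cell adhesion gene rst (roughest, of the immunoglobulin superfamily) changed by -1.97 ± 0.12, from 10.17, 10.14 and 10.15 in Canton S to 8.35, 7.99 and 8.21 in BL15598 (adjusted p = 1.59e-08). CG5953 and fok were the opposite of Hrb87F, in that BL15598 stood alone. CG5953 lay at 12.16 in Canton S, 9.98 in BL15598, 13.20 in A2663/v and 12.78 in Pb/2, and fok at 11.08, 8.60, 11.06 and 11.36. A second CG5953 probe set, over the floor in both strains, had a log2 change of -0.31. The other falls were CG15529 (-2.36), CG8888 (-2.02), CG31673 (-1.98), CG5783 (-1.96) and CG31676 (-1.94).

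**Figure D2:**
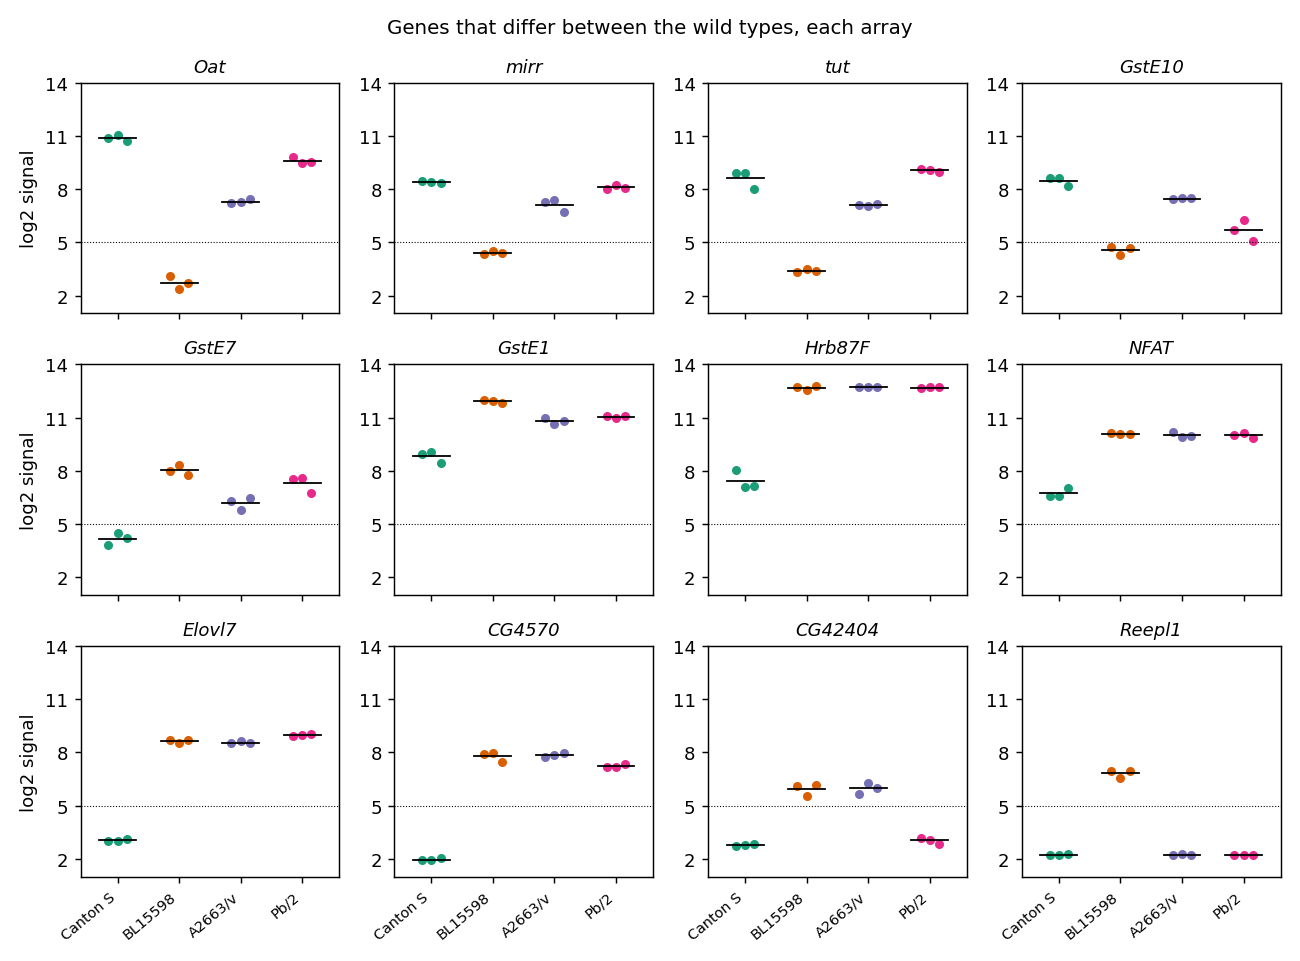
Log2 signal on each of the 12 arrays for 12 genes, with points for the 3 replicates of each genotype, black bars for means and a dotted line at the floor of log2 5. Oat, mirr, tut and GstE10 are low in BL15598, the other 8 are low in Canton S, and the mutants take either level or lie between.

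Genes of conjugation, by which glutathione or sugar groups are attached to reactive compounds, held several of the larger differences. Of 25 tested glutathione transferase and UDP-glycosyltransferase genes, 5 were called higher and 1 lower in BL15598, 24.0% against 4.97% of all genes, with a median log2 change of 0.29 against -0.01. All of the called members were glutathione transferases, but of the UDP-glycosyltransferase genes only Ugt36D1 and Ugt302C1 were tested. GstE7 lay at 3.84, 4.51 and 4.20 in Canton S and 8.00, 8.35 and 7.78 in BL15598, and GstE1 at 8.97, 9.06 and 8.46 in Canton S and 11.98, 11.92 and 11.84 in BL15598. Every BL15598 array lay above every Canton S array for both. GstD9 changed by 1.36 ± 0.15, GstE3 by 1.34 ± 0.24 and GstE9 by 1.08 ± 0.19 (SE; limma adjusted p = 8.57e-06, 0.000739 and 0.000827). Of the called members GstE10 alone went the other way, at 8.65, 8.61 and 8.18 in Canton S and 4.74, 4.30 and 4.68 in BL15598. GstE7 and GstE10, which count in the 24.0%, passed the filter through the arrays of 1 strain alone. Over the 25 tested genes 18 had a higher mean and 7 a lower one. All BL15598 arrays lay above for 13 and below for 5, against 19.5% and 22.2% of all genes. GstE1 and GstE3 were neighbours among the tested genes, as were GstE7 and GstE9. GstE genes are similar in sequence, and whether their probes also bind the transcripts of one another was not tested. Of 16 tested cytochrome P450 genes, which oxidise similar compounds, 0 were higher and 2 lower, 12.5% against 4.97% of all genes, with a median of 0.06. Cyp9f2 changed by -1.15 ± 0.22 (adjusted p = 0.00141), -0.90 and no longer 2-fold without BL15598 replicate 3, and Cyp4g15 by -1.01 ± 0.30 (adjusted p = 0.0234), a call that was lost in 8 of 18 alternatives.

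The yolk and vitelline membrane genes, made in follicle cells as yolk uptake begins, had 2 members of 10 tested called higher in BL15598 and 0 lower, beside 2.03% of all genes called higher. Their median log2 change was 1.03. All 10 had a higher mean, and for 8 of 10 all BL15598 arrays lay above all Canton S arrays, against 19.5% of all genes. The called genes were psd (palisade, a vitelline membrane protein) at 1.84 ± 0.33 and wbl (windbeutel, a chaperone of dorsoventral patterning made in follicle cells) at 1.72 ± 0.27 (SE; limma adjusted p = 0.000932 and 0.000275). The signals of psd were 5.90, 6.35 and 5.58 in Canton S and 7.81, 7.78 and 7.73 in BL15598. The signals of wbl were 5.13, 5.69 and 4.50 in Canton S and 6.69, 7.04 and 6.74 in BL15598.

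The vitelline membrane genes Vm34Ca and Vm26Aa had larger but uncalled changes. Vm34Ca lay at 8.90, 9.75 and 9.17 in Canton S and 11.05, 11.65 and 11.50 in BL15598, and its change was 2.12 ± 0.79 (SE, limma adjusted p = 0.0599). Vm26Aa lay at 4.87, 6.86 and 6.44 in Canton S and 7.51, 8.67 and 8.49 in BL15598, and its change was 2.17 ± 0.91 (adjusted p = 0.0949). The strains did not overlap for either gene, and the large standard errors came with a wide spread in the mutant arrays that share the fit: for Vm34Ca the A2663/v arrays had an SD of 1.73 and the Pb/2 arrays one of 1.84, while those of Canton S and BL15598 were 0.43 and 0.31. In a fit of the 6 wild-type arrays alone 5 of the 10 genes were called higher, beside 122 of all 5952 tested genes. Vm34Ca (limma adjusted p = 5.90e-05), Vm26Aa (0.00732) and Yp2 (0.000254) were added to psd and wbl. Of the yolk protein genes, Yp1 had a log2 change of 0.88 ± 0.30 (adjusted p = 0.0386), which is under 2-fold, Yp2 of 1.18 ± 0.51 and Yp3 of 0.78 ± 0.34 (adjusted p = 0.106 and 0.104). The eggshell gene dec (defective chorion) was at 0.83 ± 0.30 (adjusted p = 0.0510). The yolk receptor gene yl, expressed in the germline, and the protease gene ndl (nudel) lay near 0, at 0.10 ± 0.10 and 0.02 ± 0.17 (adjusted p = 0.520 and 0.936), and the strains overlapped for both.

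**Figure D3:**
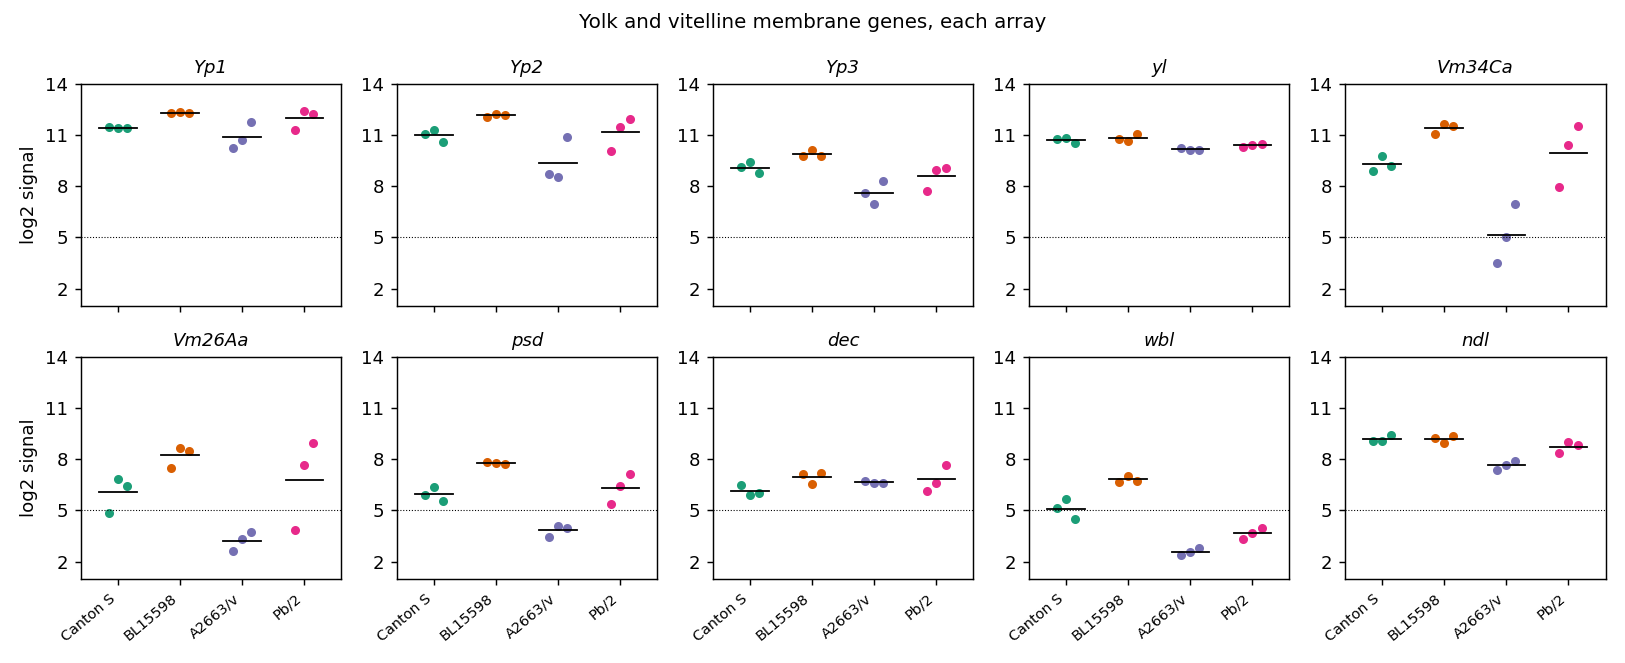
Log2 signal on each array for the 10 tested yolk and vitelline membrane genes, with black bars for means of 3 arrays and a dotted line at the floor of log2 5. The BL15598 arrays lie above the Canton S arrays for 8 of these genes, all but yl and ndl, and the mutant arrays of Vm34Ca and Vm26Aa are widely spread.

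The lists of later and earlier stages held 0 called genes, beside 4.97% of all genes, and lists this short can hold 0 at that share. The 1 late eggshell gene tested, Cp7Fc, had a log2 change of 0.17 (limma adjusted p = 0.770), and the other chorion genes on the array were under the floor on all arrays except Cp15 on Canton S replicate 1. Of 13 tested genes of the early germarium and cyst, among them vas and bam, 0 were called, with log2 changes from -0.32 to 0.40. Of 21 genes of oocyte patterning and mRNA localisation 0 were called, with a median of 0.07. The largest of these changes was that of exu, needed for the localisation of bicoid mRNA, at 0.89 ± 0.15 (adjusted p = 0.000442), while grk, bcd and osk were at -0.23, 0.09 and 0.06. Without a minimum fold 7 of the 21 passed the adjusted p, 4 higher and 3 lower, beside 26.4% of all genes.

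Of 15 tested follicle cell patterning genes 1 was called higher and 1 lower, beside 2.03% and 2.94% of all genes, with a median of -0.13. The lower one was mirr. The higher one was tsl (torso-like), which is made by follicle cells at the egg poles and signals to the embryo's ends. It lay at 4.01, 3.67 and 3.51 in Canton S and 5.72, 5.83 and 5.12 in BL15598, at least 1.47-fold higher in BL15598 (limma adjusted p = 4.33e-05), a low signal on every array, and its call was lost with values raised to the floor. Both mirr and tsl passed the filter through the arrays of 1 strain alone. The log2 change was -0.71 ± 0.22 for the receptor gene Egfr and 0.69 ± 0.18 for its inhibitor gene aos (adjusted p = 0.0302 and 0.0113), both under 2-fold and so not called.

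In the ecdysone pathway, the steroid hormone system that acts in follicle cells and germline during mid-oogenesis, 1 of 12 tested genes was called, ImpL2. That is 8.33% against 4.97% of all genes. Of the ecdysone synthesis genes, those tested were nvd at 0.75 ± 0.17 and spo at 0.36 ± 0.14 (adjusted p = 0.00402 and 0.0696), neither called. The synthesis genes dib and sad lay near the floor and did not reach it on 3 arrays, so they were not tested. Their log2 signals were 2.83, 2.77 and 2.84 in Canton S and 5.02, 5.21 and 4.76 in BL15598 for dib, and 3.81, 3.83 and 3.03 against 4.92, 5.01 and 5.13 for sad. The log2 change was 0.52 ± 0.13 for the receptor gene EcR and 0.76 ± 0.17 for the hormone-inactivating P450 gene Cyp18a1 (adjusted p = 0.00819 and 0.00396), under 2-fold.

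Most housekeeping and germline lists held 0 or 1 called genes, beside 4.97% of all genes, and lists this short can hold 0 at that share. Of 31 cytoplasmic ribosomal protein genes 0 were called (median 0.02), as of 23 cyclin and replication genes (median -0.06), 16 insulator and chromatin boundary genes (median -0.06) and 10 heat shock genes and co-chaperones (median 0.21). The heat shock median was 0.081 without Canton S replicate 2, and 1 of the 10 was called higher without Canton S replicate 1 or without BL15598 replicate 3. In the piRNA list, whose products silence transposons in the germline, 1 of 30 was called, cuff (cutoff, which acts at heterochromatic piRNA clusters). It lay at 8.71, 8.53 and 8.48 in Canton S and 7.62, 7.36 and 7.57 in BL15598, a change of -1.06 ± 0.11 (adjusted p = 3.45e-06) that fell under 2-fold without Canton S replicate 1 (-0.99) or BL15598 replicate 2 (-0.98). Of 19 cell death and autophagy genes the caspase gene Strica alone was called, at -1.29 ± 0.18 (adjusted p = 0.000108). Of 11 immune genes PGRP-SB1, a secreted peptidoglycan recognition protein, was higher, at 4.23, 6.01 and 3.21 in Canton S and 6.75, 6.65 and 6.52 in BL15598 (adjusted p = 0.00781), with Canton S replicate 2 near the BL15598 arrays. The antifungal peptide gene Drs was lower, at -1.03 ± 0.25 (adjusted p = 0.00643), a call lost without Canton S replicate 1 (-0.94) or BL15598 replicate 3 (-0.69) and with median centring. Of the piRNA list 3.33% were called, of the cell death list 5.26% and of the immune list 18.2%, against 4.97% of all genes.

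Ion channel genes were mostly under the floor, and 7 of 32 neuronal genes on the array were tested. Of these 7, 1 was called higher and 2 lower, 42.9% against 4.97% of all genes. NaCP60E, a voltage-gated cation channel, lay at 3.35, 3.37 and 3.28 in Canton S and 7.07, 6.98 and 7.24 in BL15598, at least 4.29-fold higher in BL15598 (limma adjusted p = 1.01e-10). It passed the filter through the BL15598 arrays alone, so the share of 42.9% includes a gene admitted by its own difference. The potassium channel genes SK and sei were lower, at log2 changes of -1.40 ± 0.26 and -1.32 ± 0.15 (adjusted p = 0.000930 and 1.44e-05). Of 4 SK probe sets the others lay under or near the floor. In the testis list 1 of 5 was called lower, beside 2.94% of all genes, mia, a testis-specific transcription factor subunit, at -1.45 ± 0.19 (adjusted p = 4.76e-05).

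**Figure D4:**
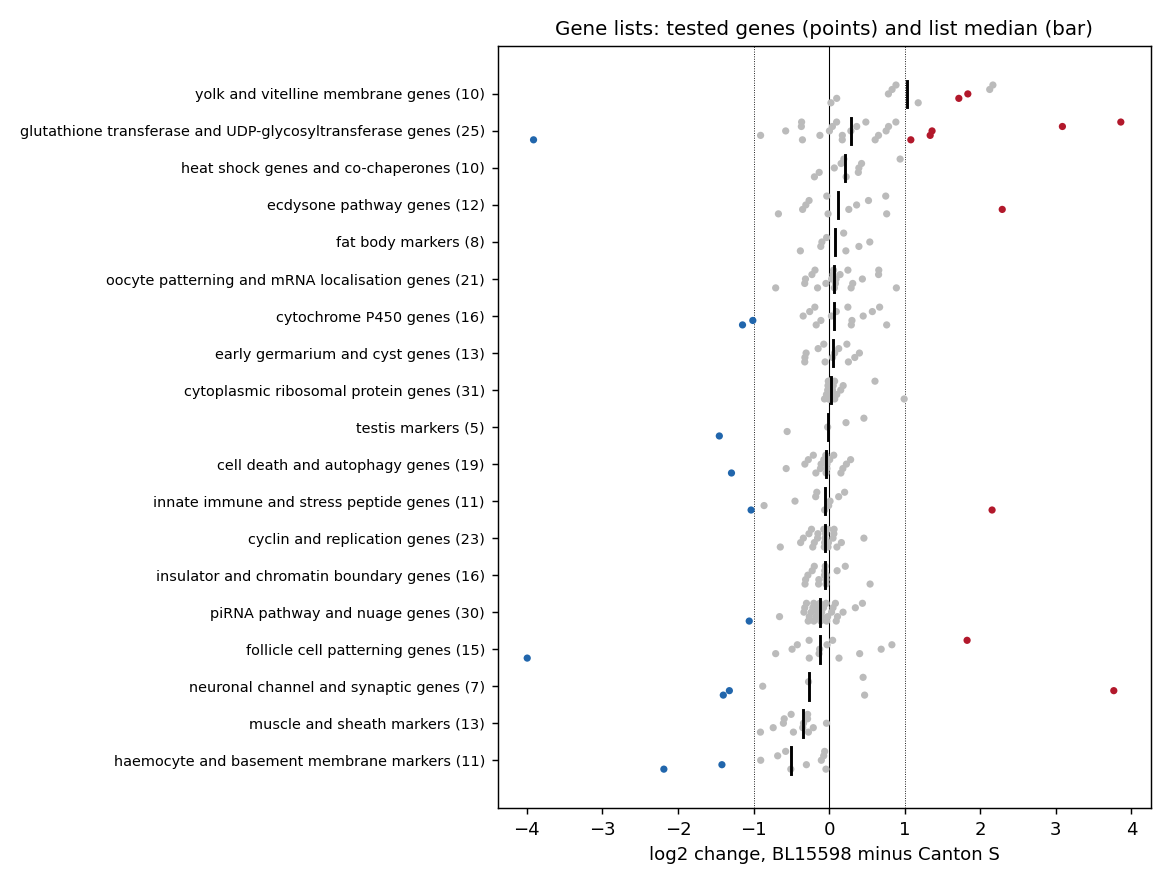
Log2 change, BL15598 minus Canton S, of each tested member of the 19 lists with at least 5 tested genes (number tested in brackets), ordered by list median (black bar). Red and blue points were called higher and lower, grey points were not called, and dotted lines mark a 2-fold change. The yolk and vitelline membrane list has the highest median, 1.03, and the haemocyte and basement membrane list the lowest, -0.51.

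Markers of cells that accompany the ovary were read in the same way. All 11 tested haemocyte and basement membrane markers had a lower mean in BL15598, with a median log2 change of -0.51, and for 7 of them all BL15598 arrays lay below all Canton S arrays, against 22.2% of all genes. Called were Pxn (peroxidasin, a basement membrane enzyme), at 6.20, 6.26 and 7.01 in Canton S and 4.78, 3.71 and 4.42 in BL15598, at least 2.81-fold lower, and NimC1, a phagocytosis receptor of haemocytes, at -1.42 ± 0.31 (limma adjusted p = 2.17e-05 and 0.00325). These 2 made up 18.2% of the list, beside 2.94% of all genes called lower, and Pxn passed the filter through the Canton S arrays alone. The mean signal over all 18 markers on the array was 6.93 to 7.18 in the Canton S arrays and 6.39 to 6.61 in the BL15598 arrays, while the haemocyte genes Hml, He, eater, Sr-CI, PPO1 and PPO2 were under the floor on all 6 arrays. The median was -0.33 without Canton S replicate 3 and -0.30 without BL15598 replicate 2. The collagen IV genes Col4a1 and vkg had log2 changes of -0.30 and -0.07, not called. All 13 muscle and sheath markers had lower means too, and 0 were called, beside 4.97% of all genes. Their median was -0.35, from -0.44 to -0.28 when each wild-type array was left out. For 8 of the 13 all BL15598 arrays lay below, the largest changes being those of Act87E at -0.91 ± 0.13 and the myosin light chain gene Mlc2 at -0.74 ± 0.10 (adjusted p = 0.000167 and 9.25e-05). Fat body markers were not called (0 of 8, beside the same 4.97%, median 0.08, and -0.22 without Canton S replicate 2), nor was the 1 gut gene tested, Mal-A1 (1.91 ± 1.84, adjusted p = 0.487). The part of sheath and haemocyte tissue in the other results was not tested.

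The genes named by the marker, insertion and su(Hw) alleles of the 4 genotypes were checked by array in the wild types, although ct[6], f[1] and the su(Hw) alleles were carried by mutants alone. The su(Hw) signal was 9.30, 9.19 and 9.13 in Canton S and 9.03, 8.78 and 8.86 in BL15598, a change of -0.32 ± 0.18 (SE; limma adjusted p = 0.229), which did not pass although the arrays did not overlap. The signal of y (yellow, for pigment) lay between 2.61 and 2.72 and that of Amt between 2.15 and 2.96 on all 6 arrays, under the floor, so an effect of the insertion on Amt itself could not be measured. No probe set named w alone. The transcription factor gene ct had a log2 change of -0.18 ± 0.23 (adjusted p = 0.607), and among the 6 wild-type arrays f was over the floor on BL15598 replicate 1 alone, at 5.88, against 8.09 to 8.97 on the mutant arrays.

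Around the P element, 5 of the 10 genes within 5 places of Amt in gene order were tested, and 1 was called, beside 4.97% of all genes. It was CG42404, the gene next to Amt, at 2.75, 2.80 and 2.85 in Canton S and 6.12, 5.53 and 6.16 in BL15598, at least 1.91-fold higher in BL15598 (limma adjusted p = 6.57e-08). A2663/v, which carries the same element, lay at 5.98 ± 0.31, and Pb/2, which does not, at 3.04 ± 0.17 (SD, n = 3), so the arrays of genotypes with the element did not overlap those without it at this gene. CG42404 was 1 of 27 among the 296 called genes with A2663/v nearer BL15598 and Pb/2 nearer Canton S. The part of the element in its signal was not tested. The call of CG42404 was lost with values raised to the floor. On the other side Hsc70-4, a constitutive chaperone, had a log2 change of -0.19 ± 0.04 and tefu, the fly ATM kinase, one of -0.93 ± 0.24 (adjusted p = 0.00493 and 0.0115), neither 2-fold. BL15598 replicate 2 was the lowest for tefu, at 5.25 against 6.48 and 6.38, and tefu was called without replicate 1 (-1.15) or replicate 3 (-1.10). The histone chaperone gene Set and the ATP synthase gene ATPsynO, on the side of CG42404, had log2 changes of 0.11 ± 0.07 and 0.01 ± 0.04 (adjusted p = 0.283 and 0.855).

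Some called genes lay next to each other. Of 292 called genes with a next tested gene in the order of the RefSeq table, 33 (11.3%) had a next gene that was called too, beside 4.97% of all genes, 27 in the same direction and 6 in opposite directions. Overlapping transcripts can share signal between neighbours, and this was not tested. Same-direction neighbours formed 23 runs, 4 of them of 3 genes. One joined hpRNA:CR32207, at least 8.41-fold higher, hpRNA:CR33940, at least 2.77-fold, and CG32212, at least 1.66-fold. A second joined CG4570, at least 6.89-fold higher, CG6574 (2.05 ± 0.21) and the methionine sulfoxide reductase gene SelR (1.12 ± 0.12). The third joined CG5001 (-1.03 ± 0.16), CG42329, at least 2.72-fold lower, and CG5397, at least 1.26-fold lower. The fourth joined the glutamine synthetase gene Gs2 (-1.29 ± 0.16), the Rab regulator gene Evi5 (-1.29 ± 0.12) and Cyp4g15. Of these 12 genes, CG5001, CG5397, CG32212, SelR, Evi5 and Cyp4g15 lost the call in at least 1 alternative. Among the pairs were psd with CG13992, both higher, and the glutamate receptor genes GluRIID and GluRIIE, both lower.

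The mutants were set beside the strains at each called gene. The position of a mutant was its distance from the Canton S mean as a share of the distance to the BL15598 mean, after values under the floor were raised to it. The genes were chosen by the difference between the same wild-type arrays, so the positions are a description with no test. Of the 296 genes, both mutants lay nearer Canton S for 135 and nearer BL15598 for 110. A2663/v alone lay nearer BL15598 for 27 and Pb/2 alone for 24. The median position was 0.45 for A2663/v and 0.42 for Pb/2. For 153 genes both mutants had positions from 0 to 1. This count includes genes with a mutant level with 1 strain once values were raised to the floor, such as Reepl1 and CG42329. Within 0.25 of the BL15598 mean lay both mutants for 54 genes, such as Hrb87F, NFAT and Elovl7, and within 0.25 of the Canton S mean for 37. For Reepl1, BL15598 stood alone, at 6.96, 6.55 and 6.98 against means of 2.25 in Canton S, 2.25 in A2663/v and 2.24 in Pb/2. Reepl1, chosen for the plot after its values were seen, was at least 3.55-fold higher in BL15598 (limma adjusted p = 2.81e-10). Among the 40 genes at least 4-fold higher in BL15598, both mutants lay nearer BL15598 for 22 and nearer Canton S for 15, and among the 34 at least 4-fold lower, for 9 and 13.

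**Figure D5:**
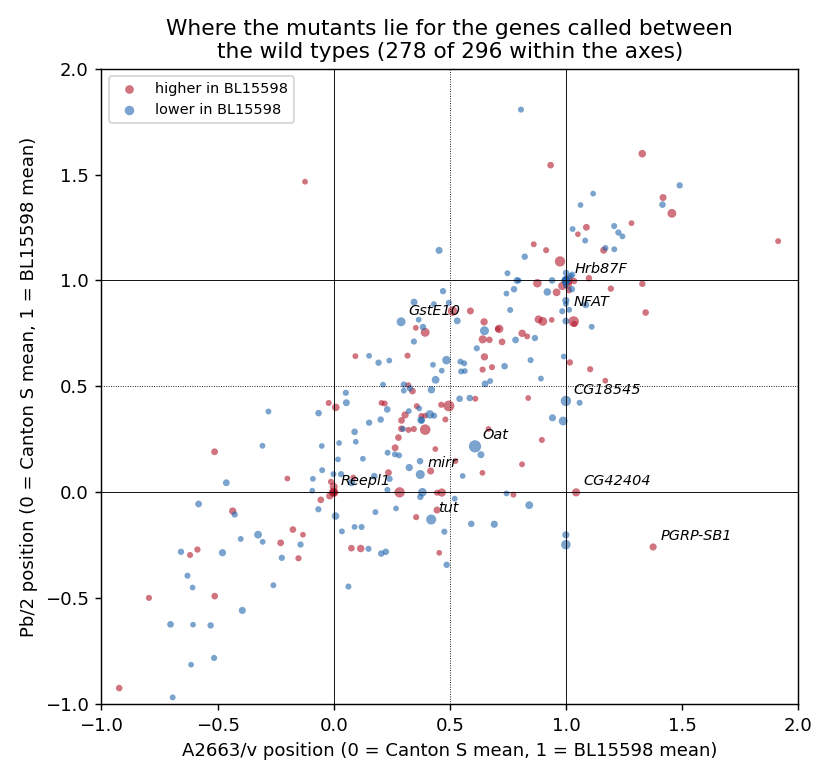
Position of Pb/2 (vertical) against A2663/v (horizontal) for the genes called between the wild types, where 0 is the Canton S mean and 1 the BL15598 mean, with point size rising with the log2 change between the wild types. Of 296 genes, 278 lie within the axes from -1 to 2. Groups of genes sit at 1 and 1, such as Hrb87F and NFAT, and near 0 and 0, such as Reepl1, and CG42404 has A2663/v at BL15598 and Pb/2 at Canton S.

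Some genes were read by further probe sets. Of the called genes, 41 had 63 other probe sets naming them alone, and 13 of these, of 10 genes, lay over the floor on at least 3 wild-type arrays. In 8 the change had the same direction, at least 2-fold in 5, and in 5 the opposite direction, namely 3 of Sarm, 1 of mthl8 and 1 of SelR. The second SelR probe set had a log2 change of -1.65 against 1.12 for the brighter one. Hrb87F, Oat, Arpc1, NFAT and Elovl7 each rested on a single probe set. A strain difference in the sequence under a probe would also change its signal, and the strains' sequences were not analysed here. Of 901 tested probe sets that name no gene or several genes, 61 were called (6.77%): 33 higher and 15 lower among 713 with no gene entry, and 7 higher and 6 lower among 188 with several.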

How the data were processed

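The authors deposited log2 values of 18952 probe sets on 12 arrays, made with Partek 6.5 and GCRMA per the submitters' processing notes, which predicts background from probe sequence, normalises arrays and summarises probes; the sources used here give neither settings nor genome build. GCRMA pulls low signals together, so folds under the floor of log2 5 depend on it. Arrays have no depth, and 3 per strain limit precision. Labels call replicates biological. Genes were named through the platform table, updated with RefSeq (Release 6 plus ISO1 MT), and each was read by whichever single-gene probe set was brightest on average over the wild-type arrays. The fit used limma 3.58.1 in R 4.3.3, with 4 genotype means, a variance trend and Benjamini-Hochberg adjustment over 5952 genes. Every list was described by counts, without a set test. On simulated data 100% of 4-fold, 58% of 2-fold and 2% of 1.5-fold changes were called, and 0 unchanged genes. The call rule needs an estimate of at least 2-fold, which by itself keeps calls of smaller or no changes few. Noise was drawn independently for each gene and array, so differences shared across an array were not simulated.

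The text names the allele genes, the 12 largest rises and falls with both means over the floor, the 8 largest bounds each way, all tested yolk and vitelline membrane genes, up to 4 called members of other lists, genes within 5 places of Amt and runs of 3 called neighbours; other list members, GstE3 and GstE9 among them, were chosen after their values were seen. Members, 23 lists and tests were chosen with earlier results of these data known. The mitochondrial list had no gene on the array, and the spermatheca list had 1 tested gene, not called. Replicate numbers came with correlations of deviations of -0.02, 0.17 and 0.12 between the strains and so do not pair the arrays. Alternatives were other filters, a floor, scalings, probe set rules, variance models, thresholds, array subsets and leaving out each array. No sequence is printed, as none was used here.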

Additional observations from a re-analysis of the deposited data

How the results depend on the processing

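The count of called genes, 296, ranged from 254 (filter at log2 6) to 357 (no filter) over the alternatives that kept the thresholds and all wild-type arrays, and it was 285 at an adjusted p under 0.01. With no minimum fold it was 1572, 700 higher and 872 lower, and at least 4-fold it was 74, 40 and 34. Leaving out each wild-type array in turn, with the same genes tested, gave 273 to 322 called genes, 113 to 132 higher and 152 to 193 lower, and 53 to 63 among probe sets that name no single gene (61 with all arrays, 71 with no filter). The replicate block gave 298, of which 296 were shared, and it added Vm34Ca and Vm26Aa. The fit of the 6 wild-type arrays alone called 300 genes. Leaving out the 4 mutant arrays with digestive enzyme signal, A2663/v replicates 1 and 3 and Pb/2 replicates 1 and 2, was a choice made after seeing the data. It left a single array in each mutant group, so the spread came from the wild-type arrays alone. It is therefore no separate check from the fit of those 6 arrays. No gene was called with the opposite sign in any alternative. Of 65 called genes named by rule, 54 kept the call in every alternative that kept the thresholds and tested the gene. The other 11 lost it in at least 1: tsl, Cyp9f2, Cyp4g15, Drs, cuff, CG42404, CG5001, CG5397, CG32212, SelR and Evi5. NaCP60E, SK, Pxn and CG42329, counted among the 54, were tested in 18 of these 19 alternatives. Signs turned for uncalled changes near 0. For yl the change was -0.027 without BL15598 replicate 3, in a range of -0.027 to 0.19 over the arrays left out. For ndl it was -0.037 without Canton S replicate 1, -0.031 without Canton S replicate 2, -0.0039 without BL15598 replicate 1 and -0.064 without BL15598 replicate 3, in a range of -0.064 to 0.14. For ATPsynO it was -0.029 with cyclic loess and -0.021 without Canton S replicate 3, in a range of -0.021 to 0.051. SelR changed by -0.26 with the mean of its probe sets, where both probe sets of opposite direction are averaged, and by 0.96 without Canton S replicate 3. The share of higher genes, 40.9%, moved to 45.1% with median centring and 46.6% with cyclic loess. Genes under the floor in 1 strain have bounds only, and signals near it were not resolved.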
